A study of Mus musculus with 40 samples.

Results

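The cytosolic ribosomal protein genes encode the proteins of the ribosome that works in the cytoplasm. Members were the genes whose symbols follow the Rpl and Rps naming pattern, together with Rplp0, Rplp1, Rplp2 and Rpsa, pseudogenes left out, and whose level was 10 TPM or more in at least 20 of the 40 libraries. TPM is a level per length of transcript, scaled to the same total in every library. Of 55270 rows, 90 symbols followed the pattern and 79 were kept, and each of the 79 was at or above 10 TPM in all 40 libraries. By symbol alone, paralogues included, 43 were assigned to the large subunit, 33 to the small subunit and 3 to the stalk. The closest genes on either side of the threshold were Rpl35, with a mean of 21.9 TPM, and Rpl13a, with a mean of 11.01 TPM and 17 libraries at or above 10 TPM.

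RNA was sequenced from adipose tissue of C57BL/6J mice, 5 libraries in each of 8 groups. In tissue labelled visceral fat, described as epididymal, and in tissue labelled subcutaneous fat, the groups were a high-fat diet with the drug (HFD + drug), a high-fat diet alone (HFD), normal mice with the drug (normal + drug) and normal mice. The series names the drug as beta-carotene, and its dose, the duration and the age of the mice are not given in the sources used here. Whether every library stands for a separate mouse is not stated, so p-values measure the spread between these libraries, which may be technical.

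Each ribosome carries a single copy of nearly every ribosomal protein, so cells make these proteins in matched amounts. Most of their mRNAs begin with a run of pyrimidines, the 5′ terminal oligopyrimidine (TOP) motif, through which mTORC1 controls how strongly they are translated. Ribosomal protein mRNAs are abundant in every tissue and are high in lymphocytes and in dividing or secreting cells. In bulk tissue, a change in the number of cells of a type and a change in RNA per cell cannot be told apart.

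The starts of several members are shown because the TOP motif is read at the first bases of the transcript. The windows run from 30 bases before to 20 bases after the start annotated by RefSeq on GRCm38.p6, on the strand of the gene, with each CTTTC in capitals. Rps27 is at chr3:90213629-90213678, minus strand, Rps15a at chr7:118116128-118116177, minus strand, Rps26 at chr10:128626487-128626536, minus strand, and Rpl38 at chr11:114668550-114668599, plus strand. Rpl41 is at chr10:128549149-128549198, minus strand, and Rpl7l1 at chr17:46782637-46782686, minus strand.
Rps27: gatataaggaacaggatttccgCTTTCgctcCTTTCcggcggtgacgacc
Rps15a: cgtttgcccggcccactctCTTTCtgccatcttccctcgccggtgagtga
Rps26: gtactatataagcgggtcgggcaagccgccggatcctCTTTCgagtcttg
Rpl38: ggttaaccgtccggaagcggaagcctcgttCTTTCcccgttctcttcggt
Rpl41: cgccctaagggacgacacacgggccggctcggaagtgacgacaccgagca
Rpl7l1: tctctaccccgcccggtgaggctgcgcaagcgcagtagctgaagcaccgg
The letters CTTTC stood on the sense strand of this 50-base window in 16 of the 57 members that the RefSeq table holds (28.1%), against 7.95% of 26968 other genes. CTTTCC, which contains the shorter motif, was in 14% of members, against 2.86% of other genes. In the 300 bases from 250 before to 50 after the start, CCGGAAG, the motif of ETS-family factors, was on either strand in 24 members (42.1%), against 9.86% of other genes. AAGATGGCG, the core of the YY1 motif, was on either strand in 5.26% of members, against 1.63% of other genes.

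Markers ran against the depot labels, and several libraries stood apart. The 10 markers of mesothelium, which lines visceral fat, had sums between 5.78 and 88.4 TPM under the visceral label, against 79.7 to 1059 TPM under the subcutaneous label. Epididymis and testis markers had sums of 1.34 to 271 TPM under the visceral label, against 9.80 to 83620 TPM under the subcutaneous label, where 6 libraries exceeded 500 TPM. Sample titles ended in e or ewat, a usual shorthand for epididymal white fat, under the subcutaneous label, and in i under the visceral one. Both lists, which mark epididymal fat and its neighbouring organ, were higher under the subcutaneous label, and depots are named here only as labelled. The 12 T cell markers exceeded 300 TPM in sum in 10 of the visceral-labelled libraries (418 to 1346 TPM), against 14.5 to 99.4 TPM in the other 10 and 15.1 to 98.4 TPM in those labelled subcutaneous. Fat cell markers summed to 21260 TPM in subcutaneous-labelled normal + drug library 9, which had the highest epididymis list, and to 41640 to 104400 TPM in the other libraries. The steps between low TPM values place the counted reads at about 4580000 to 8590000 per library, with a median of 6170000.

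The 79 members together took between 4.42% and 10.3% of all TPM in a library, with a median of 6.21%. Mean levels of single members ran from 21.9 to 2639 TPM with a median of 770 TPM, and 27 members averaged over 1000 TPM. The highest levels were those of Rpl10, a late-joining protein of the large subunit (2639 ± 590 TPM, SD, n = 40), the stalk protein Rplp1 (2155 ± 499 TPM) and Rps15, which lies near the decoding centre (2038 ± 506 TPM). Rpl41, the shortest ribosomal protein, averaged 1918 ± 544 TPM, and the stalk protein Rplp0 averaged 1658 ± 413 TPM. Their SDs overlap, but all were measured in the same libraries, so this overlap cannot decide the order. Differences between members within a library were not tested. The lowest were Rpl35, the Rps3a1 copy Rps3a2 (31.0 TPM), Rpl23a (42.7 TPM), Rpl22l1 (53.8 TPM) and Rpl7l1 (62.5 TPM). The coefficient of variation over 40 libraries had a median of 26.6%, and was widest in Rps27 (43.6%), Rps26 (43.6%) and Rps15a (39.2%). It was narrowest in Rpl7l1 (13.1%), a paralogue of Rpl7, and in Rps2 (15.8%). Rpl24 and Rps10, subunits of every ribosome, averaged only 1.40 and 4.27 TPM, and Rpl36al, a near-identical copy of Rpl36a, averaged 2.46 TPM, so these 3 fell outside the rule. Many members have processed pseudogenes or near-identical copies, such as Rps3a1 and Rps3a2 or Rps27 and Rps27l, between which reads may have been lost or shared, so levels of single members are uncertain.

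**Figure D1:**
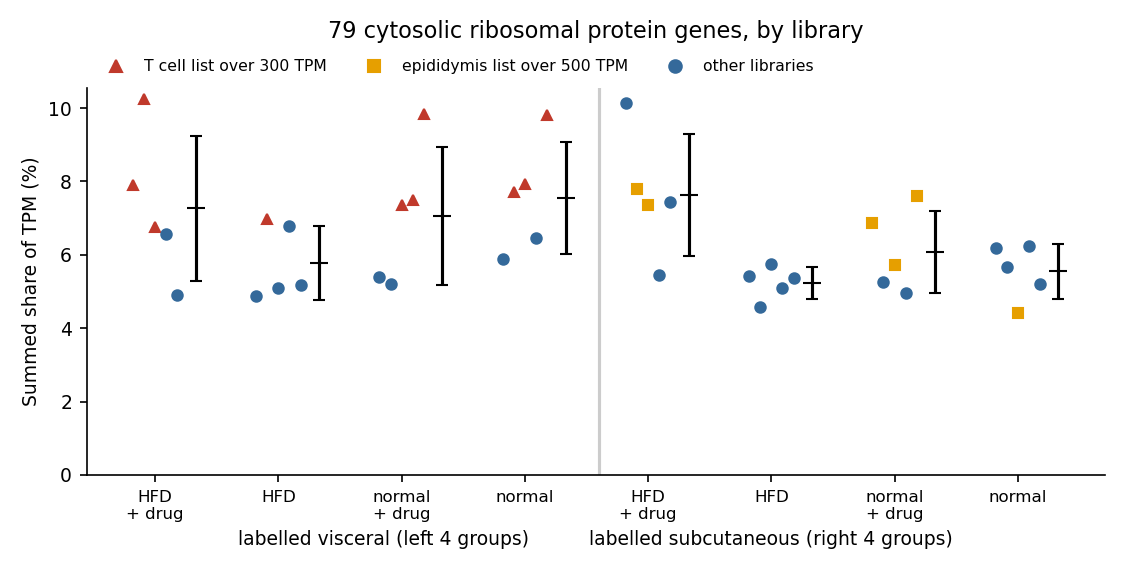
Share of all TPM (%, linear axis from 0) taken by the 79 ribosomal protein genes in each of 40 libraries, by group, with the mean and SD of 5 libraries as black bars. In labelled subcutaneous fat the HFD + drug libraries lie between 5.45% and 10.1%, against 4.57% to 5.74% in HFD libraries. In labelled visceral fat the libraries with a T cell list over 300 TPM (triangles) lie between 6.76% and 10.3%.

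In labelled subcutaneous fat, ribosomal protein mRNA was higher with the drug under the high-fat diet. The members took 10.1%, 7.80%, 7.45%, 7.35% and 5.45% of TPM in HFD + drug libraries 25, 26, 62, 27 and 52, against 5.41%, 4.57%, 5.74%, 5.11% and 5.36% in HFD libraries 22, 23, 50, 82 and 83. Library 52 lay inside the HFD range and the other 4 lay above it. The mean shares were 7.64 ± 1.67% in HFD + drug and 5.24 ± 0.44% in HFD (SD, n = 5 each). Tested gene by gene on log2(TPM + 1) with limma, 57 of 79 members rose and 0 fell at an adjusted p under 0.05. Over all 7776 genes tested, 4.4% were higher and 23% lower. The median log2 change of the members was 0.51 (1.43-fold), against -0.19 over all genes, and 78 of 79 members had a positive value. In 11 members every HFD + drug library lay above every HFD library, against 1.89% of all tested genes. These were Rpl9, Rpl32, Rpl36a, Rpl41, Rplp0, Rplp1, Rps2, Rps15, Rps19, Rps27 and Rpsa.

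Members of both subunits and the stalk rose. In the large subunit 32 of 43 members rose (median log2 change 0.51), in the small subunit 22 of 33 (median 0.52), and in the stalk 3 of 3 (median 0.53). The stalk proteins Rplp0, Rplp1 and Rplp2 carry the elongation factors to the ribosome. Rplp0 was at 2127, 1934, 1915, 1614 and 1501 TPM in HFD + drug libraries, against 1380, 1327, 1314, 1269 and 1145 TPM in HFD libraries, with no overlap. Its log2 change was 0.49 (SE 0.16, adjusted p = 0.0275). Rplp1 averaged 2725 ± 731 TPM in HFD + drug and 1767 ± 118 TPM in HFD (log2 change 0.59, adjusted p = 0.0112). Rplp2 averaged 576 ± 166 TPM in HFD + drug and 387 ± 41.5 TPM in HFD (log2 change 0.53, adjusted p = 0.0162).

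Among small-subunit proteins the greatest change was in Rps27, a zinc-finger protein. Rps27 was at 2700, 1891, 1739, 1736 and 1034 TPM in HFD + drug libraries, against 963, 960, 946, 878 and 760 TPM in HFD libraries. All HFD + drug libraries were higher, with library 52 closest to the HFD range. The log2 change was 0.95 (SE 0.22, adjusted p = 0.00646). Rps21 averaged 1626 ± 556 TPM in HFD + drug and 896 ± 87.4 TPM in HFD (log2 change 0.80, adjusted p = 0.0215), although 1 HFD + drug library, at 936 TPM, lay inside the HFD range. Rps6, the target of the S6 kinases, averaged 1369 ± 281 TPM in HFD + drug and 932 ± 59.6 TPM in HFD (log2 change 0.53, adjusted p = 0.0129). Rpsa, also known as the laminin receptor precursor, averaged 1139 ± 196 TPM in HFD + drug and 839 ± 65.1 TPM in HFD (log2 change 0.43, adjusted p = 0.0255). Rps15 rose by 0.48 on the log2 scale, with an adjusted p of 0.0194.

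Rps26, which lines the mRNA exit channel, did not pass the test despite a log2 change of 0.86 (adjusted p = 0.0608). It was at 2382 and 2167 TPM in HFD + drug libraries 27 and 26, whose epididymis lists summed to 15320 and 7577 TPM, and at 1474, 1057 and 783 TPM in the other 3, against 665 to 928 TPM in HFD libraries. Among normal + drug libraries it was likewise highest in 9 and 11, at 2573 and 1937 TPM, where that list summed to 83620 and 6769 TPM. The part of epididymal tissue in these values was not tested.

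In the large subunit, Rpl41 was at 3974, 2982, 2909, 2839 and 2019 TPM in HFD + drug libraries, against 1956, 1837, 1804, 1798 and 1592 TPM in HFD libraries. The groups did not overlap, and the log2 change was 0.68 (SE 0.20, adjusted p = 0.0178). Rpl10, the most abundant member, averaged 3306 ± 784 TPM in HFD + drug and 2247 ± 314 TPM in HFD. Its log2 change of 0.53 missed the threshold (adjusted p = 0.0617). Rpl22 and its paralogue Rpl22l1 both rose, by 0.54 (adjusted p = 0.0288) and 0.62 (adjusted p = 0.0337) on the log2 scale.

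Of the other paralogues, Rps27l, Rps4l and Rpl7l1 did not pass the test, and none was tested against its partner. Rps27l, the paralogue of Rps27, averaged 203 ± 48.6 TPM in HFD + drug and 170 ± 19.5 TPM in HFD (log2 change 0.23, adjusted p = 0.198). Rps4l averaged 150 ± 43.6 TPM in HFD + drug and 140 ± 31.1 TPM in HFD (log2 change 0.07, adjusted p = 0.822). Rpl7l1 was the only member with a negative value, at 56.0 ± 2.47 TPM in HFD + drug and 61.6 ± 10.3 TPM in HFD (log2 change -0.12, adjusted p = 0.438). To ask which members departed from the rest, each gene was also tested after subtracting the members' median log2 level of its library. On that scale 1 member rose and 1 fell, against 1.05% of all tested genes higher and 59.5% lower. Rps27 rose by 0.47 (adjusted p = 0.0133) and Rpl7l1 fell by 0.60 (adjusted p = 0.0105). The median of all tested genes on this scale was -0.67, so Rpl7l1 moved about as the typical tested gene did. The differences of Rps27l and Rps4l from the members' median did not pass, at -0.24 (adjusted p = 0.149) and -0.41 (adjusted p = 0.178).

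**Figure D2:**
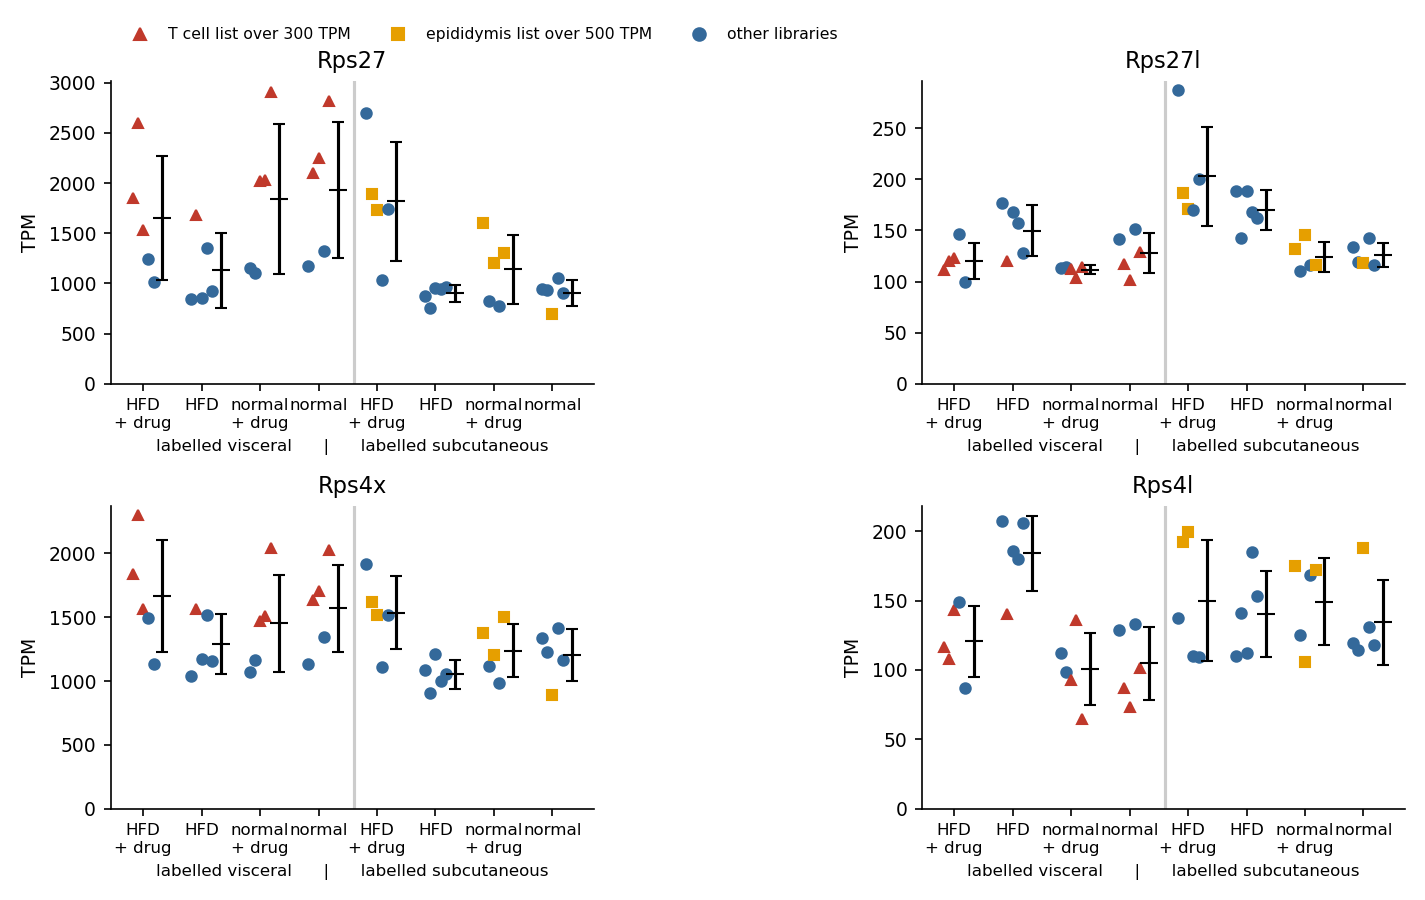
TPM of Rps27, Rps27l, Rps4x and Rps4l (linear axes from 0) in 40 libraries by group, with the mean and SD of 5 libraries as black bars. Rps27 lies above 1500 TPM in the 10 visceral-labelled libraries with a T cell list over 300 TPM, while Rps27l in the same libraries lies between 101 and 129 TPM.

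Members are short genes, and values between these groups moved with gene length, so the change was set against length. The exon length of members ran from 383 to 6270 bases with a median of 1770, against a median of 3438 for tested genes. For other genes the median log2 change fell with length, at 0.10 under 1000 bases, 0.01 from 1000 to 2000, -0.13 from 2000 to 3000, -0.17 from 3000 to 4000, -0.25 from 4000 to 6000 and -0.33 over 6000 bases. In the same classes the members' medians were 0.53, 0.53, 0.47, 0.50, 0.51 and 0.45. The members lay above other genes of their length in all 6 classes and showed little slope of their own, though the 2 longest classes hold only 4 and 2 members. With the length trend removed from each library and library medians aligned, 67 members rose (median 0.57). With the trend removed and the original library medians kept, 24 rose (median 0.37). The shares of all genes called in these corrected fits are not given here, so the counts lack a background.

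**Figure D3:**
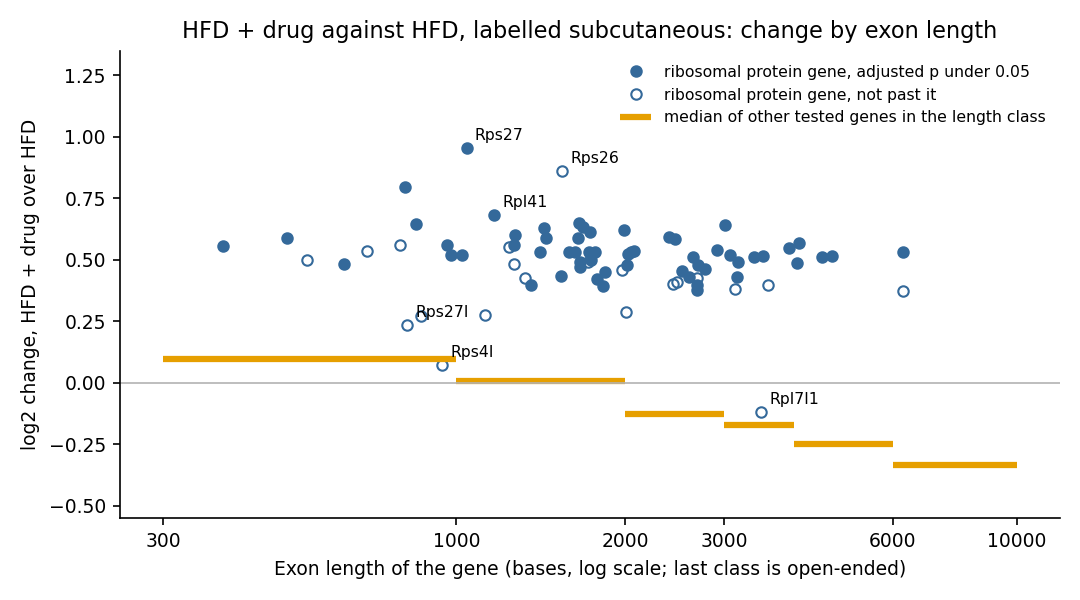
Log2 change between HFD + drug and HFD in labelled subcutaneous fat for each of 79 members (points, filled where the adjusted p is under 0.05) against exon length in bases on a log axis. Orange lines give the median of other tested genes in each of 6 length classes, which runs from 0.10 to -0.33, while the members' medians stay between 0.45 and 0.53.

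The number of members called depended on single libraries. It was 11 without HFD + drug library 25, 25 without HFD library 23, 28 without HFD library 22, 32 without HFD library 82, 32 without HFD + drug library 26, and 72 without HFD + drug library 52. The members' median stayed between 0.39 and 0.63 in these fits. The shares of all genes called in them are not given here, so the counts lack a background. Macrophage markers moved the other way, with 11 of 12 tested lower in HFD + drug and sums of 1525 to 2645 TPM, against 3046 to 13820 TPM in HFD. Mesothelium markers summed to 275 to 820 TPM in HFD + drug, against 79.7 to 239.5 TPM in HFD, and 3 of 7 tested rose. Endothelial markers summed to 192 to 335 TPM in HFD + drug, against 343.5 to 469 TPM in HFD, and 2 of 6 tested fell. Of 11 fibroblast and progenitor markers 5 fell and 1 rose, with overlapping sums of 1142 to 2017 TPM in HFD + drug and 1890 to 2939 TPM in HFD. For these marker lists the background is 4.4% of all tested genes higher and 23% lower. The part of cell composition in the rise was not tested. With the T cell list as a covariate 10 members rose, with no filter on low values 20, and with these groups fitted alone 35. Only 1 of the 12 T cell markers passed the level filter in this fit. Their sums were 23.1 to 38.5 TPM in HFD + drug, against 26.4 to 98.4 TPM in HFD. Part of the group difference may thus go into that covariate, and the part of T cells was not tested. Without the libraries whose epididymis list exceeded 500 TPM, 52 rose. The counts of members in these alternative fits also lack a background. Counted reads were highest in HFD + drug libraries 25 and 62, at about 8420000 and 8590000.

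Related genes were described from lists of known function. Of 27 initiation factors, 4 rose and 3 fell in HFD + drug against HFD in labelled subcutaneous fat, with a median log2 change of -0.02, against 4.4% of all tested genes higher and 23% lower. These shares of all genes are the background for each list of related genes given here. Eif3i rose by 0.50 (adjusted p = 0.027) and Eif3m by 0.37 (adjusted p = 0.0238), both parts of the eIF3 complex. The scaffold Eif4g1 fell by 0.77 (adjusted p = 0.00502) and the subunit-joining factor Eif5b fell by 0.43 (adjusted p = 0.0176). Of 14 elongation factors and other TOP mRNAs, 3 rose and 2 fell. Eef1b2, an elongation factor subunit, rose by 0.58 (adjusted p = 0.029) and Gas5, a host of small nucleolar RNAs, by 0.56 (adjusted p = 0.00726). Vim, the intermediate filament vimentin, fell by 1.23 (adjusted p = 0.00964) and Eif5a fell by 0.29 (adjusted p = 0.0306).

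Of 28 ribosome biogenesis factors tested, 2 rose and 0 fell (median -0.08). These were Nop10, of the pseudouridylation complex (log2 change 0.63, adjusted p = 0.0028), and Polr1c, shared by RNA polymerases I and III (log2 change 0.41, adjusted p = 0.0177). Of 15 regulators of ribosomal protein mRNA, 0 rose and 1 fell, the mTORC1 inhibitor Tsc2 (log2 change -0.49, adjusted p = 0.0234), a smaller share than the 23% of all genes that fell. Short nuclear genes of oxidative phosphorylation rose in 18 of 38 tested (median 0.39), among them Cox6c (log2 change 0.84, adjusted p = 0.00216) and Ndufa1 (log2 change 0.73, adjusted p = 0.0103). Proteins of the mitochondrial ribosome rose in 8 of 64 (median 0.13), among them Mrps24 (log2 change 0.45, adjusted p = 0.0465) and Mrpl41 (log2 change 0.44, adjusted p = 0.0206).

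In labelled subcutaneous fat, HFD against normal gave 1 member higher and 0 lower, against 6.57% and 3.7% of all tested genes. The members' median log2 change was -0.09, against 0.01 over all genes. The member called was Rps27l, at 189, 189, 168, 162 and 143 TPM in HFD libraries, against 143, 134, 119, 118 and 116 TPM in normal libraries. The ranges meet at 143 TPM, and the log2 change was 0.42 (SE 0.13, adjusted p = 0.0492). That call was lost in 20 of 37 alternative fits. Rpl38, linked in mice to the translation of Hox mRNAs, was at 150, 149, 145, 132 and 115 TPM in HFD libraries, against 102, 102, 91, 80.2 and 74.1 TPM in normal libraries. These did not overlap, and the log2 change of Rpl38 was 0.62, with an adjusted p of 0.0681. In 5 members every HFD library lay above every normal library, and in 0 every one lay below. The share of all tested genes without overlap is not given for this comparison. Relative to the members' median, Rpl38 was the 1 member that passed (0.63, adjusted p = 0.0334), against 1.84% of tested genes higher and 0.54% lower. Rps29, a zinc-binding protein, averaged 683 ± 83.2 TPM in HFD and 454 ± 67.6 TPM in normal libraries (log2 change 0.59, adjusted p = 0.109). The lowest value was that of Rps3a2, at 20.8 ± 3.77 TPM in HFD and 31.4 ± 10.7 TPM in normal libraries (log2 change -0.53, adjusted p = 0.17).

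The drug without the high-fat diet gave no call among members in labelled subcutaneous fat. Limma called 0 members and 0% of genes higher and 0% lower at an adjusted p under 0.05. At an unadjusted p under 0.05 it gave 0 members, against 504 of all 7776 genes tested. The members took 6.08 ± 1.12% of TPM in normal + drug and 5.55 ± 0.76% in normal libraries (SD, n = 5 each), with a median log2 change of 0.11, which turned to -0.20 without the libraries rich in epididymis transcripts. Rps26 had the highest value, at 1405 ± 811 TPM in normal + drug and 867 ± 151 TPM in normal libraries (log2 change 0.53, adjusted p = 0.773), and its value was -0.22 without those libraries. The difference between the drug effect under the high-fat diet and that in normal mice had a members' median of 0.40. It gave 0 members higher or lower, against 0% of genes higher and 0.0129% lower. Of 79 members, 15 had an unadjusted p under 0.05, against 1376 of all 7776 genes tested, a similar share. Rps27 had the highest difference at 0.66 (SE 0.31, adjusted p = 0.28) and Rps4l the lowest at -0.08 (adjusted p = 0.906).

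**Figure D4:**
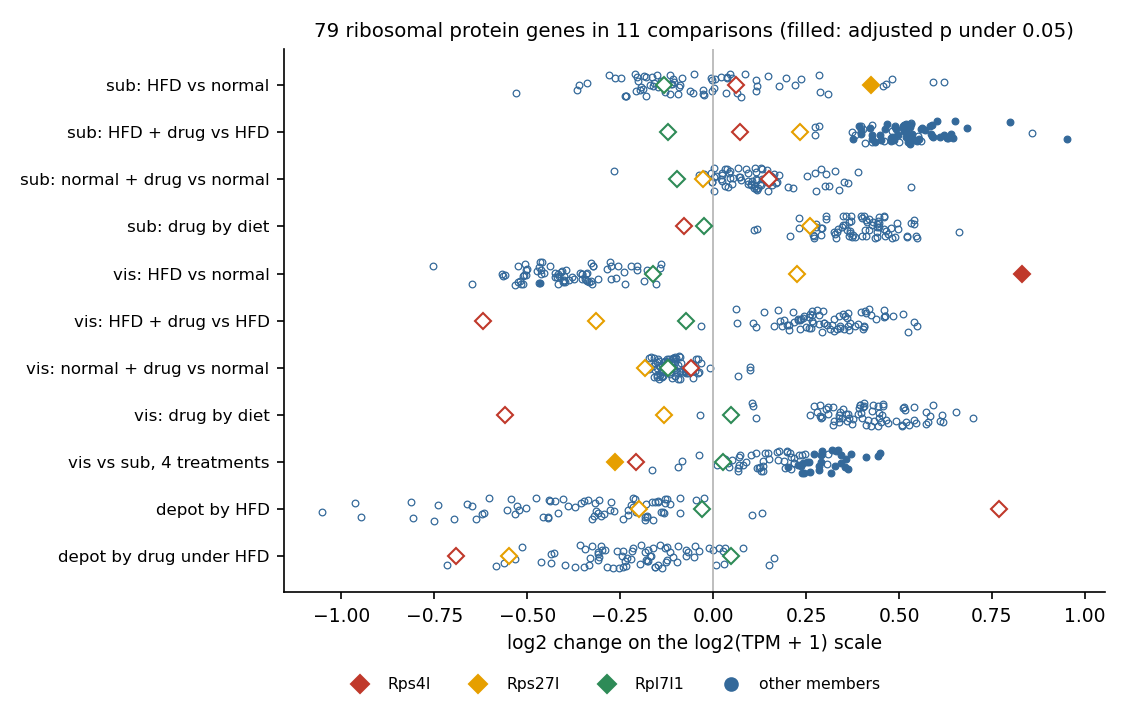
Log2 change of each of the 79 members in 11 comparisons (rows), filled where the adjusted p is under 0.05, with Rps4l, Rps27l and Rpl7l1 as diamonds (sub and vis, labelled subcutaneous and visceral fat). HFD + drug against HFD in labelled subcutaneous fat (second row) has 57 filled points with a median of 0.51, and Rps4l lies at 0.83 in visceral-labelled HFD against normal, apart from the other members.

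In labelled visceral fat, HFD libraries had less ribosomal protein mRNA than normal libraries on average, with wide overlap. The members took 6.97%, 6.78%, 5.19%, 5.10% and 4.88% of TPM in HFD libraries 23, 51, 83, 50 and 22, against 9.81%, 7.94%, 7.70%, 6.45% and 5.88% in normal libraries 99, 96, 94, 98 and 92. The median log2 change was -0.40, against -0.05 over all genes, and 77 of 79 members were negative. Among genes under 1000 bases the members' median was -0.34, against -0.51 for other genes of that class. In the 5 longer classes the members' medians were -0.48 to -0.37, against -0.06 to 0.05 for other genes. In limma 1 member rose and 1 fell, against 6.3% of genes higher and 2.63% lower. T cell lists over 300 TPM were found in 1 HFD library and 3 normal libraries, and none of the 11 T cell genes tested passed. Without the libraries over 300 TPM, the members' median was -0.18, limma called 0 members and 2 had an unadjusted p under 0.05. Only 4 HFD and 2 normal libraries were left, so that fit had less power. The 300 TPM threshold was set after seeing the data, and the share of all genes called in that fit is not given here.

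The member that rose was Rps4l, the paralogue of Rps4x. Rps4l was at 207, 206, 186, 180 and 140 TPM in HFD libraries, against 133, 129, 101, 86.8 and 73.2 TPM in normal libraries, with no overlap. The log2 change was 0.83 (SE 0.20, adjusted p = 0.0173), and relative to the members' median it was 1.27 (adjusted p = 0.0361). On that relative scale 1 member rose and 0 fell, against 10.6% of tested genes higher and 0.399% lower. Rps4x ran the other way in value, at 1289 ± 234 TPM in HFD and 1570 ± 343 TPM in normal libraries (log2 change -0.27, adjusted p = 0.405). The lowest Rps4l level in HFD libraries was in library 23, the 1 with a high T cell list. Leaving out all libraries with a high T cell list left 4 HFD and 2 normal libraries. In that smaller limma fit the log2 change of Rps4l was 0.57 (adjusted p = 0.246). Rpl22l1, which fell, was at 48.4, 47.2, 44.0, 41.5 and 35.0 TPM in HFD libraries, against 64.5, 62.1, 61.9, 55.6 and 55.0 TPM in normal libraries (log2 change -0.47, SE 0.11, adjusted p = 0.0137). These groups did not overlap, and in the smaller fit without high T cell libraries the value was -0.39 (adjusted p = 0.248).

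With the drug under the high-fat diet, the members of labelled visceral fat had a median log2 change of 0.30, and 0 passed in either direction, against 0.142% of genes higher and 5.04% lower. With limma, 4 of 79 members had an unadjusted p under 0.05, against 1668 of all 7760 genes tested, a larger share. The shares were 10.3%, 7.90%, 6.76%, 6.56% and 4.91% in HFD + drug libraries 26, 25, 27, 54 and 62, and the 3 highest were the libraries with a high T cell list. Library 62 stood apart, with 43.5% of TPM from mitochondrially encoded genes (24.8% to 30.5% in the other 4) and the muscle marker sum of 22990 TPM. With mitochondrially encoded genes left out its share was 8.70%, against 7.06% to 9.70% in HFD libraries, and without this library the members' median log2 change was 0.43. Rpl12, a protein of the base of the stalk, had the highest value, at 1093 ± 499 TPM in HFD + drug and 712 ± 195 TPM in HFD (log2 change 0.55, adjusted p = 0.375). Rps4l had the lowest, at 121 ± 25.5 TPM in HFD + drug and 184 ± 27.2 TPM in HFD (log2 change -0.62, adjusted p = 0.0784). Without the high T cell libraries, which left 2 HFD + drug and 4 HFD libraries, the members' median was 0.06. The part of T cells in this difference was not tested. Among genes under 1000 bases the members' median was 0.27, against 0.32 for other genes of that class, while in the 5 longer classes other genes had medians of -0.12 to -0.09.

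The drug in normal mice gave a members' median of -0.11 in labelled visceral fat, with 0 members called and 0% of genes higher and 0% lower. With limma, 0 members had an unadjusted p under 0.05 here, against 284 of all 7760 genes tested. Shares were 7.06 ± 1.88% in normal + drug and 7.56 ± 1.52% in normal libraries (SD, n = 5 each). Values ran from -0.18 for Rps27l (adjusted p = 0.999) to 0.10 for Rpl35 (adjusted p = 0.999). The drug by diet difference had a median of 0.40, with 0 members called and 0% of genes higher or lower. In this difference 0 members had an unadjusted p under 0.05, against 409 of all 7760 genes tested. Its extremes were Rpl12 at 0.70 (adjusted p = 0.93) and Rps4l at -0.56 (adjusted p = 0.929).

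**Figure D5:**
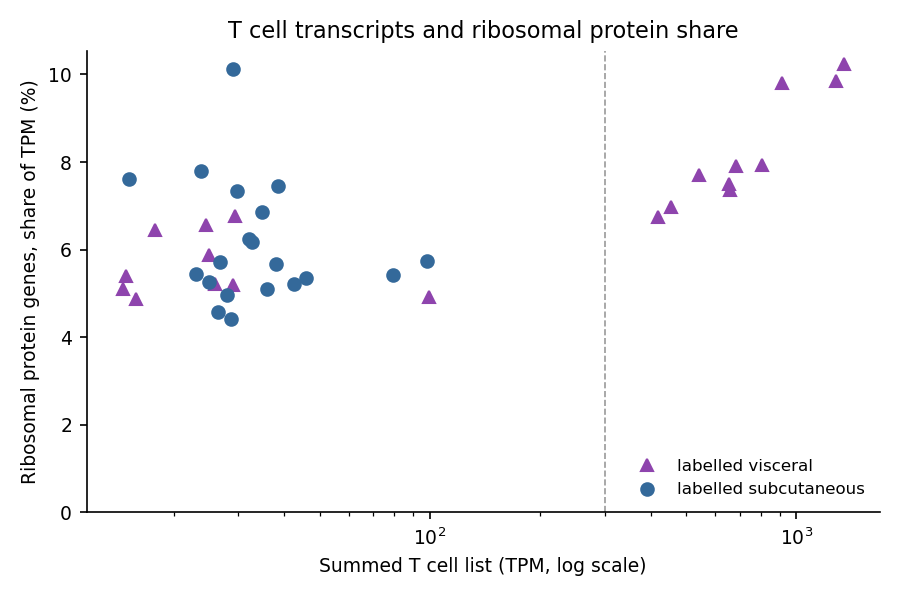
Share of TPM taken by the 79 members (%, linear axis from 0) against the summed T cell list (TPM, log axis) in 20 visceral-labelled and 20 subcutaneous-labelled libraries. The 10 visceral-labelled libraries right of the dashed line at 300 TPM lie between 6.76% and 10.3%, and the 10 left of it between 4.88% and 6.78%.

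Between depots as labelled, averaged over the 4 treatments, 30 members rose and 1 fell in visceral against subcutaneous libraries. Over all 8799 genes tested, 15.9% were higher and 25.8% lower. The members' median log2 change was 0.21, against -0.03 over all genes. By role, 18 of 33 small-subunit members rose and 1 fell, against 11 and 0 of 43 in the large subunit and 1 and 0 of 3 in the stalk. Rps27 (log2 change 0.45, adjusted p = 0.0105), Rps15a (0.44, adjusted p = 0.00528) and Rps24 (0.41, adjusted p = 0.00263) rose most, and Rps27l fell by 0.26 (adjusted p = 0.00144). Relative to the members' median 5 members rose and 18 fell, against 6.74% and 44.2% of all tested genes. Rps27 (0.22, adjusted p = 0.00982), Rps15a (0.22, adjusted p = 0.00211) and Rps24 (0.18, adjusted p = 0.0102) were again higher. Rps27l (-0.49, adjusted p = 0.000624), Rps4l (-0.43, adjusted p = 0.0218) and Rps26 (-0.39, adjusted p = 0.00161) were lowest.

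Some members that differed between depots are given here by T cell list, as a description with no test, since the 300 TPM threshold was set after seeing the data. Rps27 ran from 1537 to 2910 TPM (median 2064) in the 10 visceral-labelled libraries with a high T cell list, from 841 to 1352 TPM (median 1125) in the other 10, and from 698 to 2700 TPM (median 962) in subcutaneous-labelled libraries. The median of Rps15a was 251 TPM in the high T cell libraries, 135 TPM in the other visceral-labelled and 136 TPM in the subcutaneous-labelled libraries, and that of Rps24 was 695, 432 and 415 TPM in these 3 sets. For Rps27l the high T cell libraries had a median of 115 TPM (101 to 129 TPM), against 144 TPM in each of the other 2 sets, and the other visceral-labelled libraries overlapped them at 99.6 to 177 TPM. For Rps4l, whose ranges also overlapped, the median was 105 TPM in the high T cell libraries, 141 TPM in the other visceral-labelled and 134 TPM in the subcutaneous-labelled libraries. In the high T cell libraries the ratio of summed large-subunit to small-subunit TPM was 1.23 to 1.28, against 1.33 to 1.39 in the other visceral-labelled and 1.317 to 1.422 in subcutaneous-labelled libraries. Those sets of ratios did not overlap with the first. B cell and plasma cell markers summed to 4511 to 21360 TPM in the 10 libraries, against 183 to 1566 TPM in the other visceral-labelled libraries. In subcutaneous-labelled libraries they summed to 553.5 to 6508 TPM, which overlaps the range of the 10 libraries. Leaving out the 10 libraries left 2 to 4 visceral-labelled libraries per group. Member shares were 6.76% to 10.3% in the libraries left out, against 4.88% to 6.78% in the visceral-labelled libraries kept. The members' median was then -0.06 and the log2 change of Rps27 was -0.0033. Limma called 0 members and 4 had an unadjusted p under 0.05, with no share of all genes given. The threshold was set after seeing the data and took out libraries with high shares, so this fit is a description too. The part of T cells in the depot difference was not tested. The depot difference in the HFD effect gave 0 members called (median -0.31), against 0% of genes higher and 0% lower. In this difference 14 of 79 members had an unadjusted p under 0.05, against 756 of all 8799 genes tested. Its extremes were Rps4l at 0.77 (adjusted p = 0.446) and Rps29 at -1.05 (adjusted p = 0.317). The depot difference in the drug effect under HFD gave 0 members called (median -0.20), against 0.0796% of genes higher and 0.102% lower. In this difference 5 of 79 members had an unadjusted p under 0.05, against 1764 of all 8799 genes tested, a larger share. Rpl41 had the lowest value at -0.71 (adjusted p = 0.126).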

How the data were processed

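Per the labels' protocols, total RNA came from an RNeasy Mini extraction, and NEBNext Ultra kits made the libraries. The deposited table gives TPM per gene for the 40 libraries, and every column summed to 998300 TPM. The authors' processing, per the submitters' processing notes, names DESeq2 1.32.0, featureCounts 2.0.3, STAR 2.7.8 and FastQC 0.11.9, with GRCm39 as the genome build. How multi-mapped reads or strand were treated is not given in the sources used here, and this can change the levels of genes with near-identical copies.

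Values were analysed as log2(TPM + 1) with limma 3.58.1 in R 4.3.3, using a trended and robust empirical Bayes step and genes at 10 TPM or more in at least 5 libraries. Fits within a labelled depot used its 20 libraries, and depot fits used all 40, with no pairing by title number. Benjamini-Hochberg adjustment covered every gene tested in a comparison, calls had an adjusted p under 0.05, and all 79 members passed the filter. Fold changes on the log2(TPM + 1) scale understate changes of low genes. A second fit subtracted the members' median log2 level from each library. The test was checked on simulated libraries in which genes varied independently. Of 200 genes changed by 2 on the log2 scale, 86.5% were recovered, with 4 false calls among 7450 genes. Members had smaller median changes and were not simulated moving together, so the check does not give their power or false calls. Exon lengths came from the GENCODE M21 annotation on GRCm38, matched by symbol for all 79 members, and promoter windows from RefSeq on GRCm38.p6, matched for 57. Counted reads per library were approximated from the steps between low values of TPM multiplied by exon length. No 2 libraries held identical values, and the highest correlation between libraries was 0.975.

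The members and the gene lists were chosen with earlier results of these data known. Members named in the text were the 5 with the highest mean, the stalk proteins, Rpsa, Rps6, Rpl22 and the paralogues, the 3 greatest increases and decreases past the threshold per comparison (or the single extreme where none passed), and up to 2 each way per other list. The rule also names 1 member that is not reported here. Rps26 in HFD + drug against HFD, Rps29 and Rpl38 in HFD against normal, Rps4x, and the members named for low level or wide or narrow spread were chosen after their values were seen. Alternatives changed the pseudocount, filter, normalization, length trend, weights, covariates and libraries. The T cell covariate, the T cell threshold of 300 TPM and the length trend fitted without members were added after seeing the data.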

Additional observations from a re-analysis of the deposited data

Results flagged for a closer look

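In groups of 5 libraries, 1 library stood apart from the other 4 by Dixon's criterion (critical value 0.71) in 10 of 200 sets of values, and chance alone gives about 1 in 20. In labelled subcutaneous fat, Rps27l was at 287 TPM in HFD + drug library 25, where the others lay at 170 to 200 TPM. Rpl35 was at 15.7 TPM in HFD library 23 (others 20.4 to 21.3 TPM) and Rplp2 was at 459 TPM in HFD library 83 (others 361 to 384 TPM). In normal + drug library 9, Rps3a2 was at 59.4 TPM (others 24.3 to 33.7 TPM) and Rpsa at 1289 TPM (others 915 to 1011 TPM), and in normal + drug library 8 Rps24 was at 337 TPM (others 411 to 428 TPM). In normal library 96, Rpl35 was at 11.4 TPM (others 14.3 to 15.35 TPM) and Rps4l at 188 TPM (others 115 to 131 TPM). In labelled visceral fat, Rps27l was at 104 TPM in normal + drug library 8 (others 112 to 114.5 TPM), and Rpl41 was at 2341 TPM in normal library 99 (others 1810 to 1886 TPM). Library 9 of normal + drug had the highest epididymis list (83620 TPM), and visceral-labelled normal library 99 had a T cell list of 913 TPM. The part of other tissue in these values was not tested.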

How the results depend on the processing

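The counts below are of members called, unless a log2 change is named. They are given without the share of all genes called in each alternative fit. HFD + drug against HFD in labelled subcutaneous fat (57 members) gave 20 with no filter, 24 with the length trend removed and library medians kept, 10 with the T cell list as covariate and 35 when the compared groups were fitted alone, and 11 to 72 when single libraries were left out. HFD against normal there (1 member) gave 0 with no filter, equal library medians, mitochondrial genes removed, or the B or T cell covariate, 11 with quantile normalization, 3 with the length trend removed (fitted with or without members), 2 with medians kept, 9 with library weights, 3 without epididymis-rich libraries and 6 with the compared groups alone, and 0 to 2 when single libraries were left out. HFD against normal in labelled visceral fat (2 members) gave 4 with quantile normalization or equal medians, 7 with the length trend removed (both ways), 67 with library weights, and 0 without the libraries rich in B or T cell transcripts, and 0 to 3 when single libraries were left out. HFD + drug against HFD there (0 members) gave 12 with library weights and 0 to 1 when single libraries were left out. The depot comparison (31 members) gave 47 with quantile normalization, 61 with weights, 2 with the B cell covariate, 1 with the T cell covariate and 0 without libraries rich in T cell transcripts. The depot difference in the HFD effect gave 19 with weights, and that in the drug effect gave 1 with equal medians or weights.

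Relative to the members' median, labelled subcutaneous HFD + drug against HFD (2 members) gave 4 with quantile normalization or the length trend removed in any of the 3 ways and 16 with weights. HFD against normal there (1 member) gave 0 with no filter or the T cell covariate, 7 with quantile normalization, 2 with the length trend removed in any of the 3 ways, 26 with weights, 4 with the epididymis covariate, 3 without epididymis-rich libraries and 11 with the groups alone, and 0 to 2 with single libraries left out. The drug by diet difference there gave 9 with weights and 1 without epididymis-rich libraries. In labelled visceral fat HFD against normal (1 member) gave 0 with no filter, the epididymis covariate or without libraries rich in B or T cell transcripts, 39 with weights, 2 with the B or T cell covariate, and 0 to 4 with single libraries left out. With weights, HFD + drug against HFD there gave 30 (0 to 4 with single libraries left out), the drug by diet difference 25 and normal + drug against normal 1. The relative depot comparison (23 members) gave 49 with weights, 11 with the B cell covariate, 3 with the T cell covariate and 0 without libraries rich in T cell transcripts. Its difference in the HFD effect gave 52 with weights, and in the drug effect 16 with weights and 1 with the T cell covariate.

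Direction turned in these log2 changes. Rpl7l1 in subcutaneous HFD + drug against HFD became 0.060 with quantile normalization, 0.075 with equal medians, 0.10 with the length trend removed and 0.10 with that trend fitted without members. Rps27l there became -0.053 with the length trend removed and medians kept. Rps4l there became -0.0055 with the trend removed, -0.21 with medians kept, -0.054 with weights, -0.035 with the epididymis covariate, -0.082 with the T cell covariate, -0.22 without epididymis-rich libraries, and -0.043 to 0.18 with single libraries left out. Its drug by diet difference became 0.068 with quantile normalization, 0.10 with equal medians, 0.051 with the epididymis covariate, 0.019 without the library highest in mitochondrial share, and -0.21 to 0.028 with single libraries left out. Rps26 in normal + drug against normal became -0.023 with the epididymis covariate and -0.22 without epididymis-rich libraries, and the members' median there became -0.20 without them. The depot median became -0.041 with the T cell covariate and -0.061 without libraries rich in T cell transcripts, where Rps27 became -0.0033, and Rps4l relative to the median became 0.017 with the T cell covariate. The cause of these shifts was not tested.

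Subcutaneous and visceral-labelled libraries of a treatment share title numbers, and these may mark the same mouse. The 16 pairs had correlations of -0.10 to 0.14 between their deviations, which cannot decide this. The main depot fits treated the libraries as independent. With the title number as a block (consensus correlation 0.12) the depot comparison called 35 members, against 31 without it. The library set without B cell-rich libraries could not be fitted for subcutaneous or depot comparisons, since too few libraries or groups were left. TPM keeps no counts, so no counting error is given for single genes, and values near 10 TPM are the least certain.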

Other observations

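Ribosomal protein paralogues with restricted expression, which fell outside the 10 TPM rule, were high in a few libraries. Rpl10l and Rpl39l, expressed in mouse testis, were at 78.1 and 19.9 TPM in subcutaneous-labelled HFD library 82 and at 189.9 and 35.9 TPM in subcutaneous-labelled normal library 96. In the other 38 libraries they reached at most 5.59 and 7.15 TPM. The sperm chromatin genes Prm1, Prm2 and Tnp1 were at 108, 239 and 47.5 TPM in that HFD library and at 205, 666 and 42.9 TPM in that normal library, against at most 7.72, 40.5 and 3.76 TPM elsewhere. Rps4l was also high there among its groups, at 185 TPM in HFD library 82 and 188 TPM in normal library 96. It was as high elsewhere, reaching 199 TPM in another subcutaneous-labelled library and 207 TPM in a visceral-labelled one. The source of Rps4l transcripts was not tested.

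Rpl3l, the paralogue of Rpl3 found in striated muscle, reached 40.1 TPM in visceral-labelled HFD + drug library 62, where skeletal muscle markers summed to 22990 TPM. It was at 26.7 TPM in visceral-labelled normal library 98, with a muscle sum of 18130 TPM. It was also high in subcutaneous-labelled libraries with little muscle, at 37.8 TPM in HFD + drug library 27 (muscle sum 91.3 TPM) and 28.6 TPM in normal + drug library 9 (muscle sum 100.5 TPM). Their epididymis lists summed to 15320 and 83620 TPM. The source of these transcripts was not tested.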
